A study of Drosophila melanogaster with 10 samples.

Results

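The JAK-STAT pathway genes dome, hop, Stat92E, Socs36E and upd3 and the Turandot genes TotM, TotA and TotC were followed in the cultured fly line DL1 (Drosophila melanogaster) after knockdown of nbr. They were taken as every probe set of the Affymetrix Drosophila_2 array whose symbol field held 1 of these 8 symbols alone, which gave 9 of the 18952 probe sets in the table, with 2 for upd3 and 1 for each of the other genes. By the gene names assigned here, the table holds 12387 genes, without array controls and probe sets matched to several genes. The groups were 5 cultures bathed in double-stranded RNA (dsRNA) against nbr (CG9247), called nbr RNAi, and 5 bathed in dsRNA against renilla, called control RNAi. Both groups thus received dsRNA and were collected after 5 days, each culture was hybridised to 1 array, and the design text describes the replicates as independent. Renilla is a luciferase gene that flies do not carry, and nbr (Nibbler) encodes an exoribonuclease that trims microRNA 3' ends. The labels do not say which stretch of nbr the dsRNA covers and give DL1 no tissue or cell type.

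In flies, cytokines of the Unpaired family (upd1, upd2 and upd3) bind the receptor encoded by dome. The receptor-bound Janus kinase encoded by hop then activates the transcription factor Stat92E, which enters the nucleus. Socs36E is a Stat92E target and encodes an inhibitor that feeds back on the pathway. The Turandot genes encode small secreted proteins that are made by the fat body and by other tissues of stressed or infected flies. JAK-STAT, the MAP kinase kinase kinase Mekk1 and the NF-kappaB factor Relish have all been described as inputs to them.

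All levels are log2 GCRMA values as deposited, so a difference of 1 means 2-fold. Precision is limited by there being 10 arrays. A difference is the nbr RNAi mean minus the control RNAi mean. It was tested with limma over the 7729 probe sets with a mean of at least 4 over the 10 arrays, and passed when the p-value, Benjamini-Hochberg adjusted over all of them, was under 0.05. In bulk RNA, fewer cells that express a gene and less RNA of it per cell cannot be told apart.

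The knockdown was seen in all 5 treated cultures. The probe set of nbr lay between 7.56 and 8.84 in nbr RNAi, against 11.16 to 11.48 in control RNAi, and its log2 fold change was -3.16 (limma, Benjamini-Hochberg adjusted p = 1.46e-04). Over all probe sets 2 passed, 1 higher and 1 lower in nbr RNAi, which is 0.0259% of those tested (0.0129% in each direction). The array of nbr RNAi replicate 5 stood apart, with a mean correlation of 0.982 with the other arrays across probe sets, against 0.993 to 0.995 for each of the other 9. All 8 blood cell (hemocyte) marker genes examined were over the filter. Their summed level, on the log2 scale, ran from 15.59 to 15.90 over the nbr RNAi arrays and from 15.65 to 15.84 over the control RNAi arrays. That sum is set mostly by the brightest markers, He, Ppn and crq. Singly, 5 of the 8 (Hml, srp, eater, crq and Ppn) were lowest of the 10 arrays on nbr RNAi replicate 5, and NimC1 and Pxn were highest there. On that array eater read 10.54, against 12.01 to 12.13 on the other nbr RNAi arrays, and Hml 6.30, against 7.40 to 7.61.

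None of the 8 genes passed the test after nbr knockdown, beside 0.0259% of all tested probe sets. These genes were chosen with earlier results of these data known, so their ranks and p-values are a description. Of the 7 with a probe set over the filter, 4 had a higher and 3 a lower mean in nbr RNAi. TotM stood out by size: it was 1.42-fold higher, while the receptor, kinase and transcription factor genes were each within 1.05-fold of control. TotM was also the 1 member of 7 at an unadjusted p under 0.05, as were 5.87% of all tested probe sets in limma (4.15% higher and 1.72% lower). No member had groups that do not overlap, against 0.970% of all tested probe sets (0.75% higher and 0.22% lower). The median difference of the 7 was 0.070, beside 0.0056 for all tested probe sets, and the median size was 0.12 beside 0.056.

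**Figure D1:**
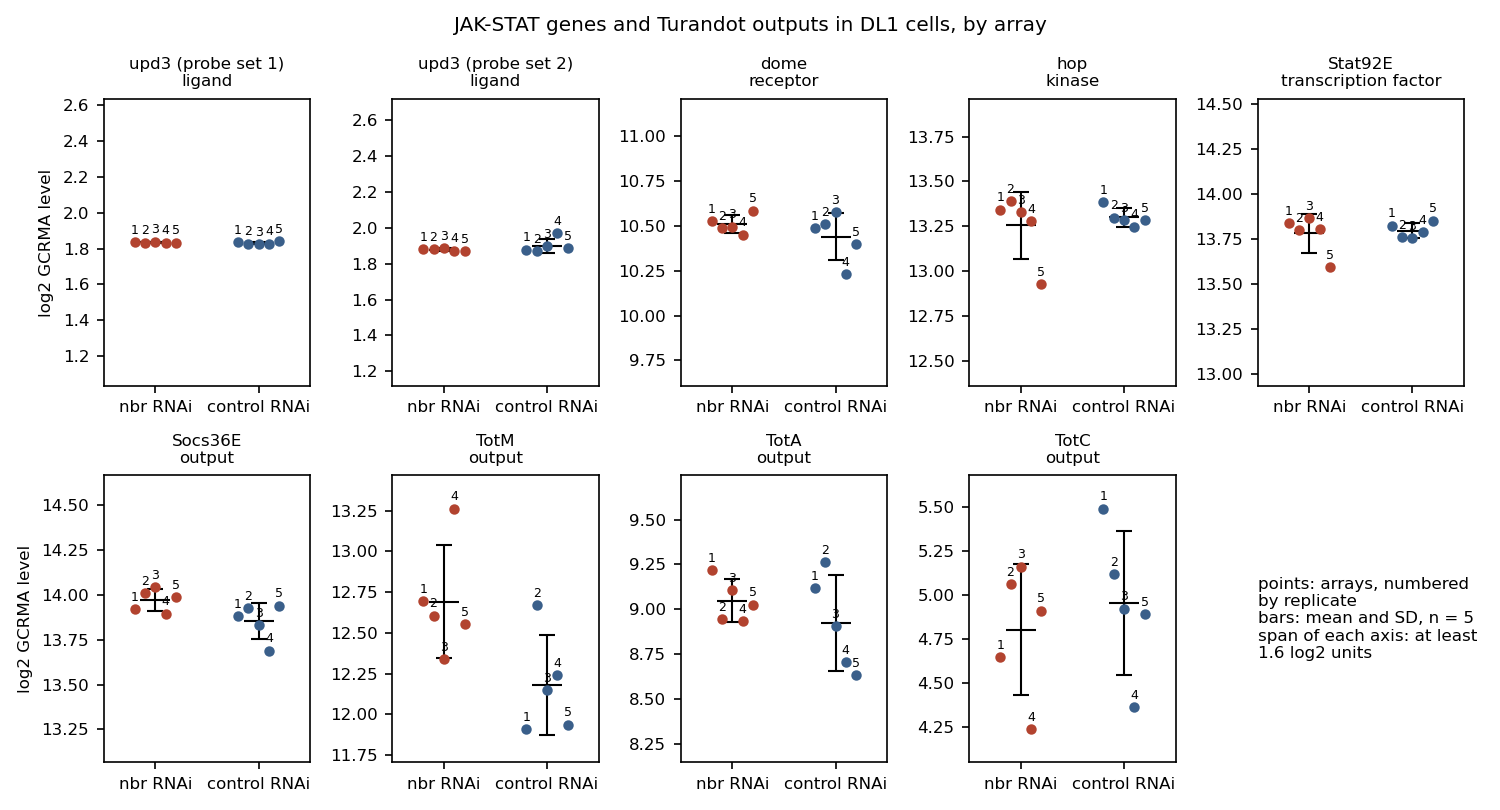
Log2 GCRMA level (vertical axis) of the 9 member probe sets on each array, with nbr RNAi (red) left of control RNAi (blue). Numbers give the replicate and bars the mean and SD (n = 5). The groups overlap in every panel, TotM has the widest separation of means (12.69 and 12.18), and replicate 5 of nbr RNAi is the lowest array for hop (12.93) and Stat92E (13.59).

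The ligand gene upd3, which is induced by wounding and infection in flies, was near background on every array. Its first probe set lay between 1.83 and 1.84 in nbr RNAi and between 1.83 and 1.84 in control RNAi. Its second lay between 1.87 and 1.89 in nbr RNAi and between 1.87 and 1.97 in control RNAi. Only 1.12% and 2.66% of all probe sets had a lower mean than these, and the median mean was 2.37, so both were under the filter and give no limit on a change of upd3.

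The receptor gene dome had levels of 10.53, 10.49, 10.50, 10.45 and 10.58 in nbr RNAi replicates 1 to 5, against 10.49, 10.51, 10.57, 10.23 and 10.40 in control RNAi replicates 1 to 5. The 5 nbr RNAi values lay close together and, apart from replicate 5, inside the control range. Control array 4 was the lowest of the 10. The difference was 0.070 ± 0.063 (standard error), with 95% limits of -0.071 and 0.21 (limma, Benjamini-Hochberg adjusted p = 0.899), and the 2-sided exact permutation p was 0.349. Without control array 4 the difference was 0.017.

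The kinase gene hop had levels of 13.34, 13.39, 13.33, 13.28 and 12.93 in nbr RNAi, against 13.39, 13.30, 13.28, 13.25 and 13.28 in control RNAi. Replicate 5 of nbr RNAi lay below all other arrays, and the other 9 shared nearly the same range. The difference was -0.045 ± 0.082 (standard error), with 95% limits of -0.23 and 0.14 (limma, Benjamini-Hochberg adjusted p = 0.960, exact permutation p = 0.849). Without nbr RNAi replicate 5 it was 0.036.

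Stat92E had levels of 13.84, 13.80, 13.87, 13.81 and 13.59 in nbr RNAi, against 13.82, 13.76, 13.75, 13.79 and 13.85 in control RNAi. Here too nbr RNAi replicate 5 was the lowest array and the rest overlapped. The difference was -0.015 ± 0.054 (standard error), with 95% limits of -0.14 and 0.11 (limma, Benjamini-Hochberg adjusted p = 0.979, exact permutation p = 0.873). Without nbr RNAi replicate 5 it was 0.032. The signs for hop and Stat92E therefore rested on 1 array, which stood apart over all probe sets as well. Among the 8 hemocyte markers that array was the lowest for 5 and the highest for NimC1 and Pxn. The part of that array's cell makeup or quality in these values was not tested. For all 3 of dome, hop and Stat92E the 95% interval excluded a change of 1.5-fold in either direction, as it did for 92.9% of all tested probe sets.

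The feedback inhibitor gene Socs36E had levels of 13.92, 14.01, 14.04, 13.90 and 13.99 in nbr RNAi, against 13.88, 13.93, 13.83, 13.69 and 13.94 in control RNAi. Of the 5 nbr RNAi arrays 3 lay above every control array, and the groups overlapped. The mean was 13.97 ± 0.062 in nbr RNAi and 13.85 ± 0.10 in control RNAi (SD, n = 5 each), a 1.09-fold difference. It did not pass, with a log2 difference of 0.12, 95% limits of -0.0049 and 0.24, and 0.854 as its Benjamini-Hochberg adjusted p in limma. Its exact permutation p was 0.0556. The interval excluded a change of 1.5-fold. Control array 4, the lowest of the 10, carried the most weight, since the difference was 0.077 without it.

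TotM had levels of 12.69, 12.61, 12.34, 13.26 and 12.55 in nbr RNAi, against 11.91, 12.67, 12.15, 12.24 and 11.94 in control RNAi. All 5 nbr RNAi arrays lay above the control mean, and 4 of the 5 control arrays lay below every nbr RNAi array. Control replicate 2 was inside the nbr RNAi range and above 3 of its arrays, and nbr RNAi replicate 4 was well above all others. The mean was 12.69 ± 0.35 in nbr RNAi and 12.18 ± 0.31 in control RNAi (SD, n = 5 each). The log2 difference was 0.51 with a standard error of 0.19, and its 95% interval ran from 0.099 to 0.92, or from 1.07-fold to 1.89-fold. Only 20 of the 7729 tested probe sets, 0.259%, had a larger positive difference. The members, TotM among them, were chosen with earlier results of these data known. This rank and the p-values of TotM therefore give no independent support. TotM did not pass, with an unadjusted p of 0.0199 and a Benjamini-Hochberg adjusted p of 0.849 in limma, and its exact permutation p was 0.0397. Its SD between replicates, 0.33, exceeded that of 92.8% of tested probe sets, and the median SD was 0.12.

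The difference of TotM kept its sign when any array was left out. It was lowest without nbr RNAi replicate 4, at 0.37, and highest without control replicate 2, at 0.63. Replicate 4 of nbr RNAi was also the highest array for 4 of the 8 hemocyte markers (srp, He, eater and Ppn). It read 12.63, 14.49, 12.13 and 13.97 for these, against 12.57, 14.48, 12.06 and 13.86 on the next highest array. For TotM it read 13.26, against 12.69 on the next highest. The part of these markers in the TotM value was not tested. The unadjusted limma p stayed between 0.00432 and 0.0497 in these 10 fits and the adjusted p between 0.474 and 1.00, so no fit called it. In the authors' deposited table TotM is at 1.42-fold with a p-value of 0.0389 and a q-value of 19.5%, and Socs36E is at 1.09-fold with the same q-value. That q-value is the authors' own measure, not the limma adjusted p, and they were not compared.

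**Figure D2:**
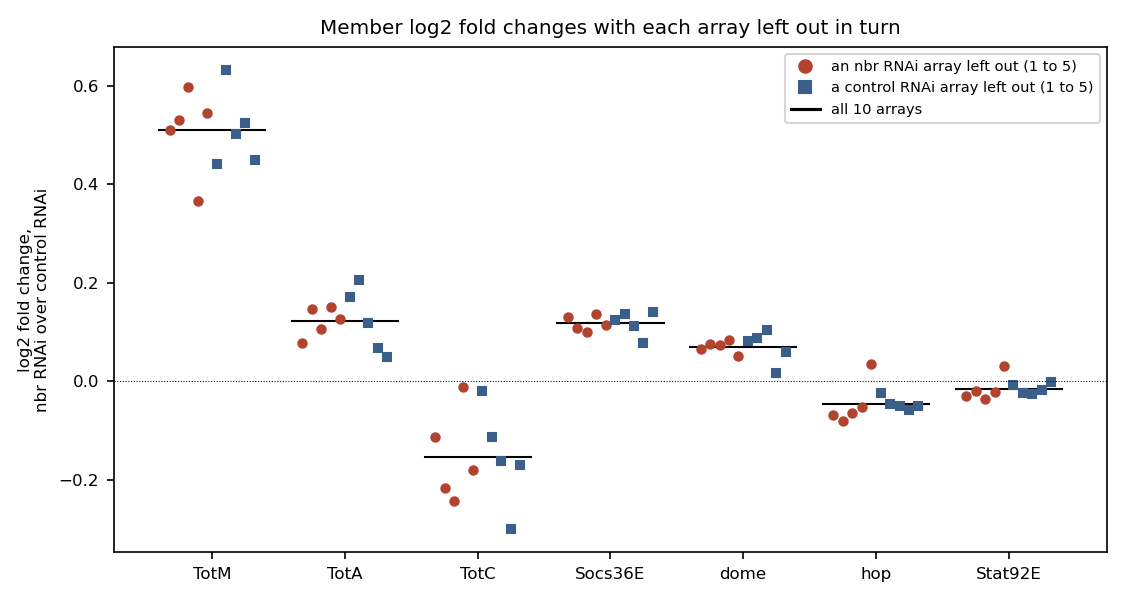
Log2 fold change of nbr RNAi over control RNAi (vertical axis) for the 7 tested members, with each array left out in turn. Red circles leave out an nbr RNAi array, blue squares a control RNAi array, replicates 1 to 5 from left to right, and black lines use all 10. TotM stays between 0.37 and 0.63, and hop and Stat92E are positive only without nbr RNAi replicate 5.

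TotA, the founding member of the Turandot family, had levels of 9.22, 8.94, 9.11, 8.93 and 9.03 in nbr RNAi, against 9.12, 9.26, 8.91, 8.70 and 8.63 in control RNAi. No nbr RNAi array lay above the highest control array. The lowest 2 arrays were control replicates 4 and 5. The log2 difference was 0.12 with a 95% interval of -0.14 to 0.39 (limma, Benjamini-Hochberg adjusted p = 0.907, exact permutation p = 0.389). It ran from 0.049 without control replicate 5 to 0.21 without control replicate 2.

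TotC, which lies next to TotA in the RefSeq annotation, had levels of 4.65, 5.06, 5.16, 4.24 and 4.91 in nbr RNAi, against 5.49, 5.12, 4.92, 4.37 and 4.89 in control RNAi. It was just over the filter. Its replicates were spread more widely than those of 95.3% of tested probe sets. The log2 difference was -0.15 with a 95% interval of -0.64 to 0.34 (limma, Benjamini-Hochberg adjusted p = 0.944, exact permutation p = 0.548). The interval holds both a 1.5-fold lower level and no change. It was -0.012 without nbr RNAi replicate 4, -0.30 without control replicate 4 and between these in the other 8 fits.

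The order of the arrays differed between the outputs in places and was shared in others. TotM was highest on nbr RNAi replicate 4, where TotC was lowest of the 10 arrays and TotA was seventh. Control replicate 2 was the highest control array for TotM and the highest of all arrays for TotA. Socs36E was highest on nbr RNAi replicate 3, which was the lowest nbr RNAi array for TotM.

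Genes with a profile like that of TotM were named by the root mean square difference from it over the 10 arrays, after centring each probe set on its own mean. A flat profile would be at 0.39 by this measure, so it favours genes whose arrays spread as widely as those of TotM and gives no ranking of members with a small spread. The nearest named gene was fz3, a Frizzled-family gene, at 0.12, on a probe set with a mean of 4.01, at the edge of the filter, and a control RNAi mean of 3.77, under it. Its levels were 4.44, 3.99, 4.00, 4.76 and 4.05 in nbr RNAi, against 3.50, 4.23, 3.60, 3.79 and 3.70 in control RNAi. Like TotM, it was highest on nbr RNAi replicate 4 and, among the controls, on replicate 2. Next came the Piwi-family gene aub at 0.21, then CG6126, Ude and bbg, each at 0.22. Over these 5 genes the log2 difference ran from 0.30 to 0.48, and none passed. They were picked from 7729 probe sets for likeness over all 10 arrays, with the difference between the groups included. Their likeness, their positive differences and the highest arrays they share with TotM are therefore a description.

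**Figure D3:**
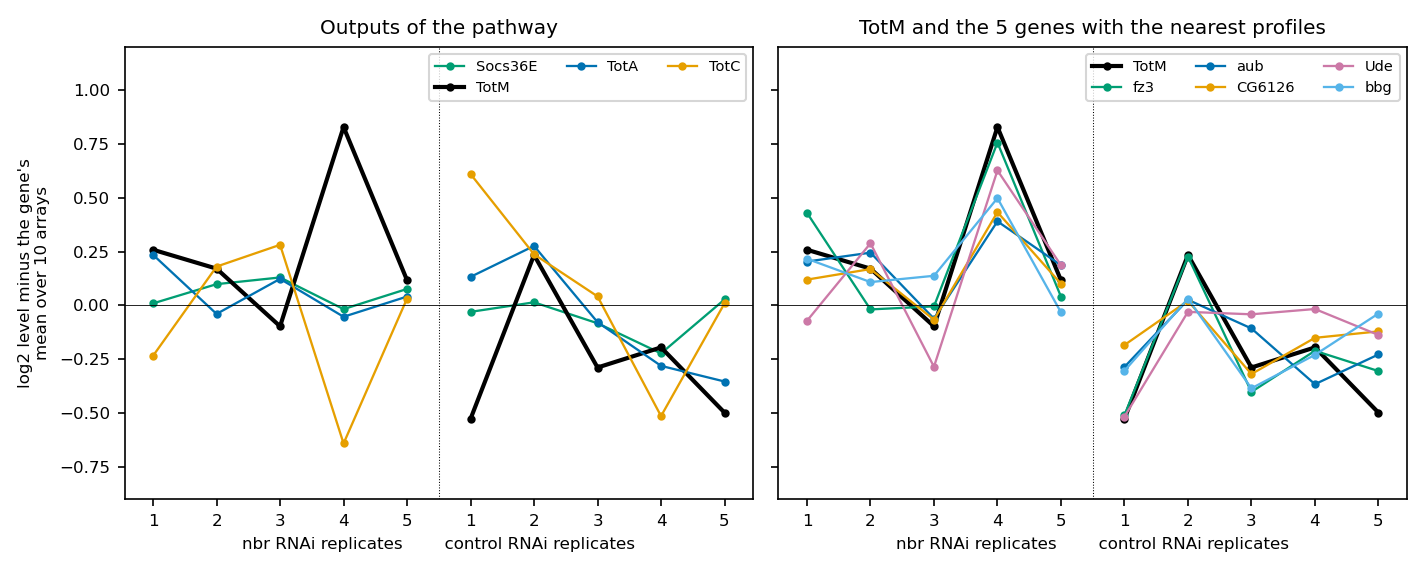
Log2 level minus the gene's mean over the 10 arrays (vertical axis), for nbr RNAi replicates 1 to 5 and then control RNAi replicates 1 to 5. Lines only join the points of a gene, since replicates have no order. The left panel shows the 4 outputs, where TotM (black) and TotC part on nbr RNAi replicate 4, and the right panel TotM with the 5 nearest genes, all highest there.

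A wider list of 27 genes with a probe set gave the rest of the pathway, its regulators, its targets, the remaining Turandot genes and their other inputs. This list was chosen with earlier results of these data known, and some of its genes had more than 1 probe set. Its shares are therefore a description. Of the 27 genes, 21 with 25 probe sets were tested and none passed in either direction, beside 0.0259% of all tested probe sets. With so low a share over the array, the absence of a call among 25 says little about the list. The lowest limma Benjamini-Hochberg adjusted p was 0.849. Before adjustment p was under 0.05 for 3 probe sets that were higher (wdp, Cdk4 and TotE) and 2 that were lower (p38a and 1 of 3 for chinmo), 20.0% of the list, beside 5.87% of all tested probe sets. That count ranged from 1 without control replicate 4 to 5 when an array was left out. It was also 2 without nbr RNAi replicate 2, 2 without nbr RNAi replicate 3, 3 without nbr RNAi replicate 4, 3 without control replicate 1, 3 without control replicate 2 and 2 without control replicate 3. The median difference of the 25 was 0.010. For 22 of them the 95% interval excluded a change of 1.5-fold, as it did for 92.9% of all tested probe sets. The exceptions in the list were wdp, vir-1 and E(bx). The gene zfh1 was not analysed here.

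Among the ligands, upd1 was the only one over the filter, while upd2 and upd3 were near background. The upd1 probe set, listed in the file under the older symbol os, had levels of 13.39, 13.43, 13.35, 13.35 and 13.35 in nbr RNAi, against 13.35, 13.35, 13.30, 13.29 and 13.29 in control RNAi. All 5 nbr RNAi arrays lay above all 5 control arrays, by a gap at its narrowest smaller than the rounding shown. It was the 1 probe set of the list whose groups did not overlap, beside 0.970% of all tested probe sets. The log2 difference was small, 0.061, or 1.04-fold, with a 95% interval of -0.016 to 0.14. The exact permutation p was 0.00794, the smallest that the 252 splits allow, while limma, which draws so low a spread toward that of other probe sets, gave an unadjusted p of 0.109 and a Benjamini-Hochberg adjusted p of 0.866. Only 1.79% of tested probe sets had a smaller SD between replicates. The ligand gene upd2 averaged 2.02 in nbr RNAi and 2.01 in control RNAi.

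The gene et (eye transformer), which lies next to dome and encodes a related receptor that dampens signalling, averaged 2.18 in nbr RNAi and 2.20 in control RNAi, under the filter. Among 7 genes of negative regulators, wdp, which encodes a transmembrane protein reported to lower receptor levels, had the largest difference of the pathway. Its levels were 8.41, 9.18, 9.005, 8.71 and 8.32 in nbr RNAi, against 8.39, 8.26, 8.29, 7.66 and 8.40 in control RNAi. Of the nbr RNAi arrays 4 lay above all controls, and control replicate 4 was far below the rest. The log2 difference was 0.52 with a 95% interval of 0.096 to 0.95 (limma, Benjamini-Hochberg adjusted p = 0.849, exact permutation p = 0.0317), and it was 0.39 without control replicate 4.

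The phosphatase gene Ptp61F had 2 probe sets with differences of 0.043 and -0.088. Su(var)2-10, which encodes the PIAS protein that inhibits Stat92E, had 2 at 0.033 and -0.12. The 2 probe sets of each gene thus disagreed in sign, within their errors. Without nbr RNAi replicate 5 the first of Su(var)2-10 was at 0.18. Socs16D and Socs44A, relatives of Socs36E, were at 0.085 and 0.010, and the transcriptional repressor gene ken was at 0.063. A second Socs16D probe set, under the filter, averaged 2.31 in nbr RNAi and 2.29 in control RNAi. The remodelling factor gene E(bx) was at -0.15 with all arrays and at 0.13 without nbr RNAi replicate 5, where it read 10.34, against 11.68 to 11.81 on the other nbr RNAi arrays.

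**Figure D4:**
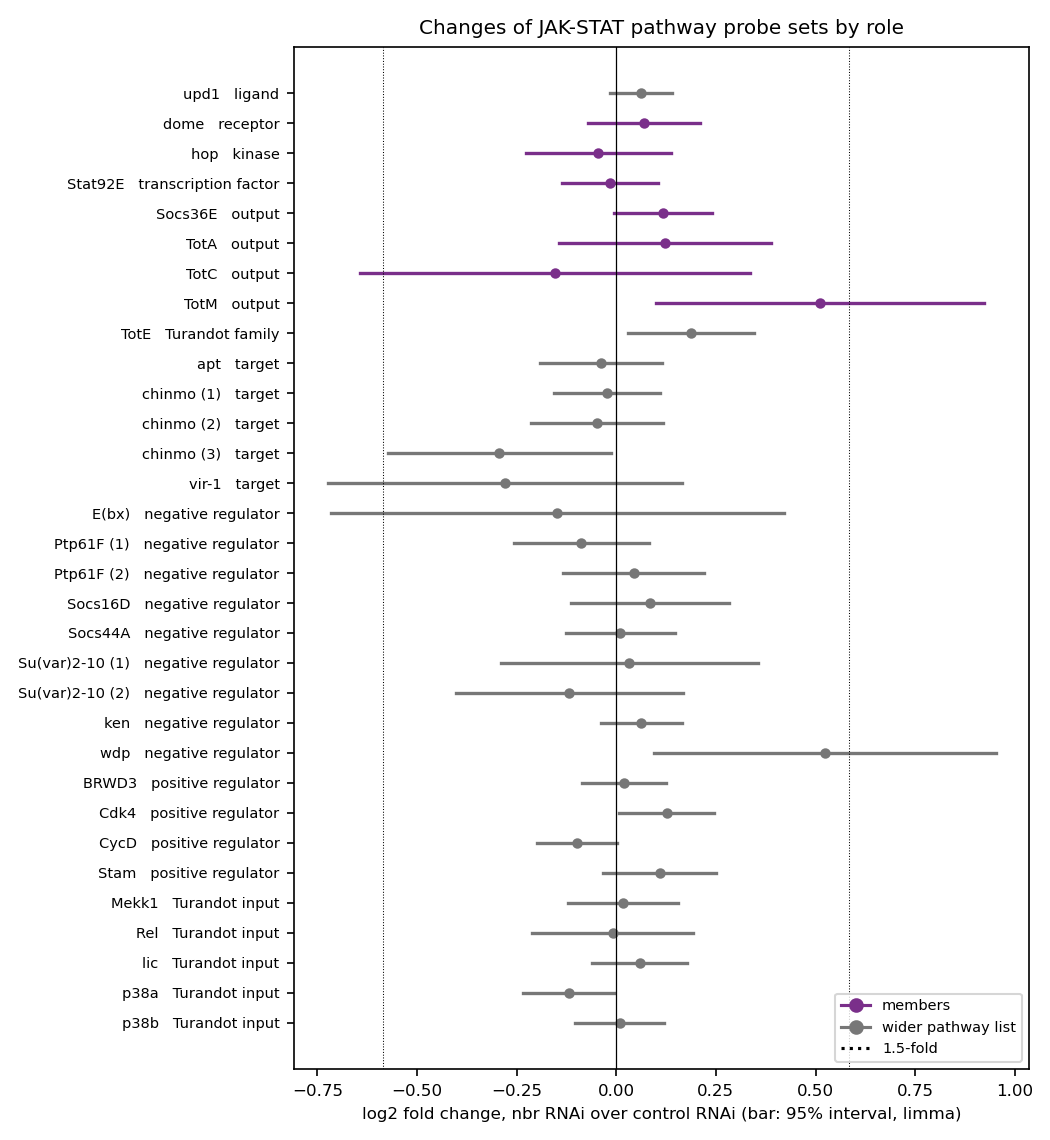
Log2 fold change of nbr RNAi over control RNAi with its 95% interval (horizontal axis, limma, 10 arrays) for 32 tested probe sets of the pathway, by role. Members are purple and the wider list grey. Dotted lines mark 1.5-fold. Numbers after a symbol tell probe sets of the same gene apart. TotM and wdp lie farthest right, at 0.51 and 0.52.

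Among positive regulators, Cdk4 was at 0.13 and its cyclin partner CycD at -0.098, opposite in sign, and Stam, which encodes an adaptor protein of endosomes, was at 0.11. BRWD3, described in flies as a positive component of the pathway, was at 0.019. The limma p was 0.0390 for Cdk4 and 0.0543 for CycD before adjustment, and 0.849 and 0.854 after Benjamini-Hochberg adjustment. Targets of Stat92E other than the members had lower means in nbr RNAi for all 5 probe sets. The BTB zinc finger gene chinmo was at -0.29, -0.048 and -0.023 on its 3 probe sets, and the probe set at -0.29 averaged 6.79 in nbr RNAi and 7.09 in control RNAi. All 3 were lower on nbr RNAi replicates 4 and 5 than on the other nbr RNAi arrays. The antiviral response gene vir-1 was at -0.28 (95% interval -0.72 to 0.16) and the transcription factor gene apt at -0.037. Without nbr RNAi replicate 5, 3 of the 5 were positive, with chinmo at 0.011 and 0.0028 on the probe sets at -0.023 and -0.048 and apt at 0.024.

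Of the 5 Turandot genes outside the members, only TotE was over the filter, listed in the file as Victoria. It had levels of 7.55, 7.55, 7.49, 7.78 and 7.71 in nbr RNAi, against 7.41, 7.48, 7.40, 7.28 and 7.57 in control RNAi. All 5 nbr RNAi arrays lay above the control mean, 2 of them above every control. The log2 difference was 0.19 with a 95% interval of 0.029 to 0.35 (limma, Benjamini-Hochberg adjusted p = 0.849, exact permutation p = 0.0476), and it ran from 0.15 to 0.22 when an array was left out. TotE shared with TotM its highest array, nbr RNAi replicate 4. TotB, TotF, TotX and TotZ had means between 2.11 and 2.51 in both groups, near background. Of the 4 measured Turandot genes, 3 therefore had a higher mean in nbr RNAi (TotM, TotE and TotA) and 1 a lower one (TotC), with none passing.

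Inputs to the Turandot genes other than JAK-STAT had small differences. Mekk1 was at 0.016, the p38 kinases' activator lic at 0.059, p38b at 0.0082 and Rel at -0.0095. The kinase gene p38a was at -0.12, with 95% limits of -0.24 and -0.0045 (limma, Benjamini-Hochberg adjusted p = 0.849). For all 5 the interval excluded a change of 1.5-fold, as it did for 92.9% of all tested probe sets. Fat body markers, examined because that tissue makes Turandot proteins in the fly, were under the filter for 10 of 10 genes. Their summed level, on the log2 scale, ran from 5.54 to 5.67 in nbr RNAi and from 5.52 to 5.61 in control RNAi. Of the lamellocyte markers, genes of a blood cell type that overactive JAK-STAT signalling promotes in larvae, 3 of 4 were over the filter and none passed. Their summed level, on the log2 scale, ran from 11.87 to 12.09 in nbr RNAi and from 11.76 to 11.96 in control RNAi. That sum is set mostly by atilla and cher. The 3 tested had higher means in nbr RNAi, as did 4087 of all 7729 tested probe sets. The log2 differences were 0.12 for atilla, 0.19 for PPO3 and 0.15 for cher, and the groups overlapped for each. For each the limma Benjamini-Hochberg adjusted p was at least 0.854. ItgaPS4 was near background.

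**Figure D5:**
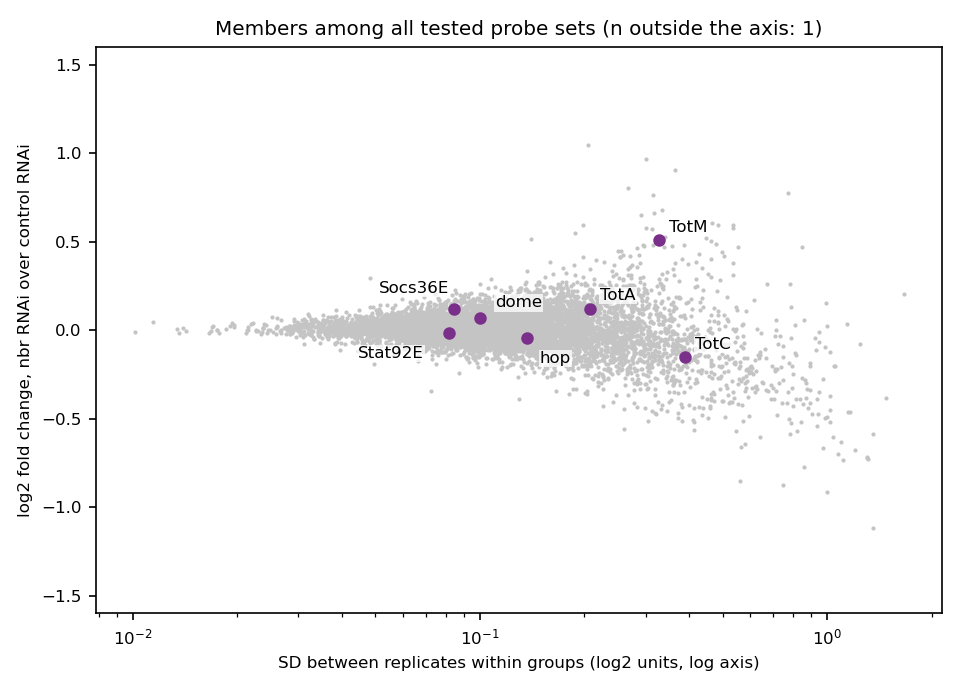
Log2 fold change of nbr RNAi over control RNAi (vertical axis) against the SD between replicates within groups (horizontal log axis, log2 units) for 7729 tested probe sets (grey) and the 7 tested members (purple). The probe set of nbr lies outside the axis. TotM and TotC lie where replicates differ most, with SDs of 0.33 and 0.39. Stat92E, Socs36E and dome lie below the median SD of 0.12, with SDs of 0.082 to 0.10.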

How the data were processed

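Per the labels' protocols, TRIzol RNA was amplified (Ovation Pico WTA) and labelled with biotin. The deposited values are log2 levels per probe set, and the submitters' processing notes list GCRMA and Partek, without versions or order. GCRMA equalises the distributions of arrays, which hides any change in a cell's total RNA. The authors' deposited table also holds, per the file headers, a score, a q-value as a percent, a signed fold change and a p-value, with tmr written for nbr. The 2 deposited tables agreed in 189520 of 189520 array cells.

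Of 18952 probe sets, 183 array controls were left out. Wider-list genes were named through RefSeq accessions (13660 probe sets), otherwise by symbol. A mean of at least 4 over the 10 arrays was required. The fit used limma 3.58.1 in R 4.3.3, without covariates, and was tested on simulated data. Exact permutation tests were 2-sided over 252 splits. Plots used matplotlib 3.10.9.

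Members and lists were chosen with earlier results of these data known. Named genes are the members, nbr, the wider list (27 genes with a probe set, 1 without) and the 5 genes nearest to TotM. Marker genes fall outside that rule and were named after their values were seen. BRWD3, first listed with negative regulators, was moved to the positive ones. Alternatives were leaving out each array, array weights, median centring, quantile normalization, other filters, a looser threshold, 1 probe set per gene, an unmoderated test, a robust trend and the replicate number as a block. Promoter motifs were not searched, since sequences were not used here. Marker lists of neurons, muscle and germline had 1 of 4 genes each over the filter (elav, Tm1 and aub), and none passed.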

Additional observations from a re-analysis of the deposited data

Results flagged for a closer look

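In 70 groups of 5 arrays (the members, nbr and the tested wider list), 9 held 1 array far from the other 4 by Dixon's criterion. Chance gives about 1 of 20 for independent groups, but these groups share the same 10 arrays. The rate over all tested probe sets is not given here, so the count shows no trait of these genes. Replicate 5 of nbr RNAi was the far array 6 times, each time as the lowest. It read 12.93 for hop, against 13.28 to 13.39 on the other nbr RNAi arrays, and 13.59 for Stat92E, against 13.80 to 13.87. It read 11.45 for the first probe set of Su(var)2-10, against 12.16 to 12.25, and 10.34 for E(bx), against 11.68 to 11.81. It read 6.81 for apt, against 7.09 to 7.13, and 12.41 for Rel, against 12.81 to 12.92. For the NF-kappaB gene Rel the log2 difference was -0.0095 with all arrays and 0.082 without that array.

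Control RNAi replicate 4 was lowest for wdp, at 7.66, against 8.26 to 8.40 on the other controls. It was highest for the second upd3 probe set, at 1.97, against 1.87 to 1.90, near background. Control RNAi replicate 5 was highest for Cdk4, at 12.45, against 12.34 to 12.36.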

How the results depend on the processing

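No member and no gene of the wider list was called by limma under any alternative run (0 in each), while members at an unadjusted p under 0.05 numbered 1 with all arrays and 0 to 2 under the alternatives. The difference of TotM was positive throughout and lowest, at 0.37, without nbr RNAi replicate 4 and with array weights, where its unadjusted limma p was 0.0849. The differences of dome, Socs36E, TotA and TotC kept their signs (with a minimum mean of 6, TotC was not tested). Their sizes moved. With all 10 arrays in the fit, the alternatives put dome between 0.031 and 0.070 and Socs36E between 0.094 and 0.12. They put TotA between 0.057 and 0.12 and TotC between -0.24 and -0.083. With array weights hop was at 0.017 and Stat92E at 0.042. When each array was left out, hop ran from -0.080 to 0.036 and Stat92E from -0.036 to 0.032, positive only without nbr RNAi replicate 5. Probe sets called over the whole array numbered 4 with median centring, 4 with array weights, 4 at an adjusted p under 0.1 and 1 with the replicate number as a block, and 1 to 3 when an array was left out. With the replicate block, TotM had a limma adjusted p of 0.998. The labels give no shared day or batch for a number, and same-numbered arrays' deviations correlated at 0.18, 0.10, -0.47, -0.090 and -0.14 for replicates 1 to 5, so the numbers were not taken to pair the arrays. Probe sets at an unadjusted p under 0.05 numbered 454, from 255 to 775 when an array was left out and 901 with array weights. Probe sets near background (upd3, upd2, et, the second of Socs16D and 4 Turandot genes) give no limit on a change.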
